A study of Mus musculus with 2 samples.

Results

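The 32 genes described here encode Sm proteins, LSm proteins, the proteins specific to the U1 and U2 particles, and the SMN complex. They were chosen by symbol, with no rule on measured values but with earlier results of these data known. Through NCBI gene numbers they were matched to 32 of the 41709 entries of the deposited tables. Of the 32, 30 were measured, meaning that at least 1 library held 50 reads. The 2 others were Snrpf, with 5 and 2 reads, and Snrpn, with 0 reads in both libraries.

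Whole lungs of C57BL/6 mouse embryos at E14.5, the stage at which the lung is branching, gave 2 polyadenylated RNA libraries, each from a pool of 7 lungs. The first library has the genotype label control, is called wildtype in the study's design text, and held 22581490 counted reads. The second has the genotype Prmt5 knockdown and a title that names Shh and Prmt5, and it held 25829281 reads. The labels do not say how Prmt5 was lowered or in which cells, and they name no allele or agent that both groups share. With 1 library per group there is no spread between replicates and no test. Where a pair of read counts is given, the control library comes first. Each ratio below is knockdown over control on the log2 scale, with a 95% interval that covers counting error only. A member passed the rule of size when it was measured, its ratio was at least 1.5 in either direction, and its interval excluded a ratio of 1. In whole lung, fewer cells of a type and less RNA per cell cannot be told apart.

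Sm proteins form a ring around the small nuclear RNAs (snRNAs) of the spliceosome, the machine that removes introns. In the cytoplasm PRMT5, with WDR77 and pICln (gene Clns1a), places symmetric dimethyl marks on arginines next to glycines in the tails of SmB, SmD1, SmD3 and LSm4. The Tudor domain of SMN binds these marked tails, and the SMN complex then closes the ring on the RNA. LSm proteins form related rings, one on U6 snRNA in the nucleus and another that feeds mRNA to decapping in the cytoplasm. Lowered PRMT5 is known from other tissues to disturb splicing, which gene counts do not measure.

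The contrast between the PRMT5-methylated proteins and the others rests on Arg-Gly pairs, so the coding sequence was read for an arginine codon followed by a glycine codon. The coding stretch of at most 60 codons that holds the most such pairs is shown for 2 of the 4 methylated proteins, 5′ to 3′ on the coding strand, with each Arg-Gly codon pair in capitals. The sequences are those of the GENCODE transcripts on GRCm38, the assembly that mm10 stands for, joined across introns.
Snrpb: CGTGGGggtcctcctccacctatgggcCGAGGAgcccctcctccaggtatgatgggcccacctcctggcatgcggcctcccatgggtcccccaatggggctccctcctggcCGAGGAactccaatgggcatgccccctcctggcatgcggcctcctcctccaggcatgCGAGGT
Snrpd3: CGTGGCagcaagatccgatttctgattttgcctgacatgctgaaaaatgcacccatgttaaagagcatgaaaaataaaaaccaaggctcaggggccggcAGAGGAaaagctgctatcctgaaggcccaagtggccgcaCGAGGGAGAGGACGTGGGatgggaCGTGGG
The Snrpb stretch is codons 172 to 229 of 231 and lies on the minus strand at chr2:130171942-130173081, over 3 of its 7 coding exons. The Snrpd3 stretch is codons 64 to 119 of 126, on the plus strand at chr10:75532240-75535298, over 2 of 3 coding exons.

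Over the whole coding sequence, Snrpd1 held 10 Arg-Gly codon pairs, Snrpb and Lsm4 held 8 each and Snrpd3 held 7. Among all genes with a coding sequence, 3.48% held at least 8 pairs and 4.66% at least 7. Among the other members, Snrnp70 also held 8 pairs, Snrpn and Gemin5 held 7 each, Lsm11 held 6, and the rest held 0 to 3. High counts over the whole coding sequence were thus shared by the methylated proteins and by 4 members outside that class. These counts take no account of length, which was 126 codons for Snrpd3 and 1502 for Gemin5. In the stretch of at most 60 codons with most pairs, Snrpd1 held 10, Lsm4 7, Snrpd3 6 and Snrpb 4. By the same measure Snrnp70 held 4, Snrpn 3, and Gemin5 and Lsm11 2 each.

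The targeted gene did not pass the rule. Prmt5 (NCBI gene 27374) had 2704 and 2127 reads (log2 -0.43, -0.51 to -0.35). Its cofactor Wdr77 had 1812 and 1498 reads (-0.36), and Clns1a had 2260 and 1997 (-0.26). Among these and 6 further methylosome and arginine methyltransferase genes, the arginine methyltransferase gene Carm1 passed as lower (4865 and 3357 reads, -0.62), 8 did not pass and the median was -0.26. Over all measured genes 12.3% passed as lower. The labels do not say which exons were targeted, so this whole-gene count does not check the genotype label.

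The 2 pools differed in tissue markers, although both are labelled lung. Lung epithelium markers were lower in 10 of 12, from 0.199% of reads in the control to 0.0547%, with Nkx2-1 at 7550 and 895 reads. All 11 liver, 11 heart and 8 skeletal muscle markers were higher, and these lists took 1.04%, 0.660% and 0.0929% of knockdown reads against 0.00611%, 0.0234% and 0.00259% of control reads. No marker of these 4 lists was at 0 in either library. Red blood cell markers went from 1.01% to 3.59% of reads, with all 12 measured ones higher. Of 8 lung mesenchyme markers 6 were lower, whereas all 8 immune, 11 neuron, 6 adrenal cortex and 4 measured thymus markers were higher. Cell cycle lists differed little: 1 of 13 S phase genes was higher, none was lower (median -0.03), and none of 12 G2/M genes passed (median -0.20). The part of the tissue markers in the values of the splicing genes was not tested.

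Of the 30 measured members, 3 were lower past the rule of size, 1 was higher and 26 did not pass. The lower members were Lsm4, Lsm2 and Smn1, and the higher member was Gemin5. Of all 14569 measured genes, 20.7% passed as higher and 12.3% as lower, against 3.33% and 10% of the members. In either direction it was 33% of all measured genes and 13.3% of the members. The members' share of lower genes was therefore close to the background and their share of higher genes was below it. The median log2 ratio of the members was -0.12, beside -0.01 for all measured genes. A log2 ratio within 0.32 of 0 was found in 22 of 30 members (73.3%) and in 45.6% of all measured genes, and counting error is wider for genes with fewer reads. With that smaller ratio as the rule, 7 members were lower and 1 was higher, beside 24.4% and 28.2% of all measured genes (52.6% in either direction). With a ratio of 2, Lsm4 and Smn1 were lower and no member was higher, beside 4.83% and 14% of all measured genes (18.8% in either direction). Counting those past the rule, 16 members had an interval wholly below 0, 4 wholly above it, and 10 an interval that held 0. Over all 14569 measured genes these numbers were 5457, 5415 and 3697.

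**Figure D1:**
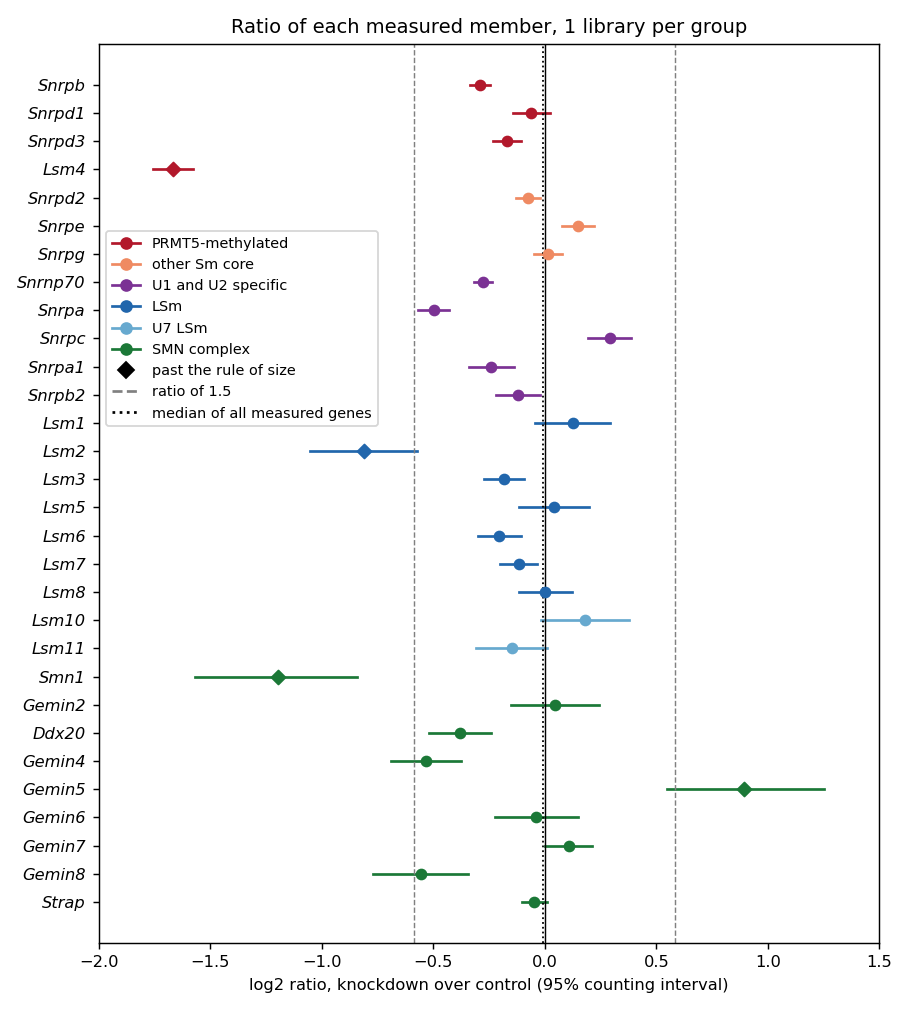
log2 ratio of knockdown over control for each of the 30 measured members (points) with the 95% counting interval (bars), coloured by role; diamonds mark members past the rule of size, dashed lines a ratio of 1.5 and the dotted line the median of all measured genes. Lsm4 at -1.67 lies far to the left of the other PRMT5-methylated members, which lie between -0.29 and -0.06.

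All 4 genes of PRMT5-methylated proteins had a log2 ratio below 0. Lsm4, 1 of the 4, passed the rule as lower, beside 12.3% of all measured genes. A ratio below 0 was also found in 16 of the 26 other measured members and in 50.6% of all measured genes. Snrpb encodes SmB, which shares the ring position with SmN. Its control count was 8953 reads and its knockdown count 7758 (log2 -0.29, -0.33 to -0.25). Snrpd1, encoding SmD1, had 2423 and 2464 reads (-0.06, -0.14 to 0.02). Snrpd3, encoding SmD3, had 4245 and 3999 reads (-0.17, -0.23 to -0.11). These 3 genes had log2 ratios within 0.32 of 0, and the interval of Snrpd1 held 0.

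Lsm4 encodes a protein that is the methylated subunit of the LSm rings. Its control count was 3905 reads and its knockdown count 1305, or 166 and 52.5 CPM (TMM-scaled counts per library size), and it was 3.17-fold lower (log2 -1.67, -1.76 to -1.57). In rank by ratio it stood 238th from the lowest of the 14569 measured genes, and it was the lowest of the 30 members. Lsm4 (NCBI gene 50783, chr8:70673231-70678752) shared no exon bases with another gene in the GENCODE annotation and had no copy of 90% identity. The genes next to it, Pgpep1 (0.47) and Jund (5.39), had ratios in the opposite direction, given below. Whether reads were assigned to genes alike in both libraries was not tested, and the 3.17-fold value is given as a ratio of counted reads.

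The median log2 ratio of the 4 methylated members was -0.23 and that of the 26 other measured members -0.10, a difference of -0.13. Without Lsm4 the difference was -0.07, and with means in place of medians it was -0.41, so its size rests on this gene. The 3 methylated Sm genes ranged from -0.29 to -0.06 (median -0.17), inside the range of the other members (-1.20 to 0.89). Smn1 and Gemin5 set the ends of that wide range. The 3 measured Sm genes outside the methylated class, Snrpd2, Snrpe and Snrpg, ranged from -0.07 to 0.15 (median 0.01). Snrpb and Snrpd3 lay below that narrower range and Snrpd1 inside it, and none of these Sm genes passed the rule.

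Most measured genes around Lsm4 did not share its direction. Jund, which encodes a transcription factor of the AP-1 family and starts 24.5 kb further along the chromosome, went from 181 control to 8076 knockdown reads. Its ratio was 42.0-fold higher (log2 5.39, 5.18 to 5.62). Of the 3 nearest measured genes on each side of Lsm4, 4 passed as higher and 1 as lower. Over all measured genes these shares were 20.7% and 12.3%. The lower gene was Pik3r2, with 358 and 173 reads (log2 -1.13). On the other side Pgpep1 had 1022 and 1502 reads (0.47) and did not pass. Neighbours were looked at after the members' values had been seen.

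**Figure D2:**
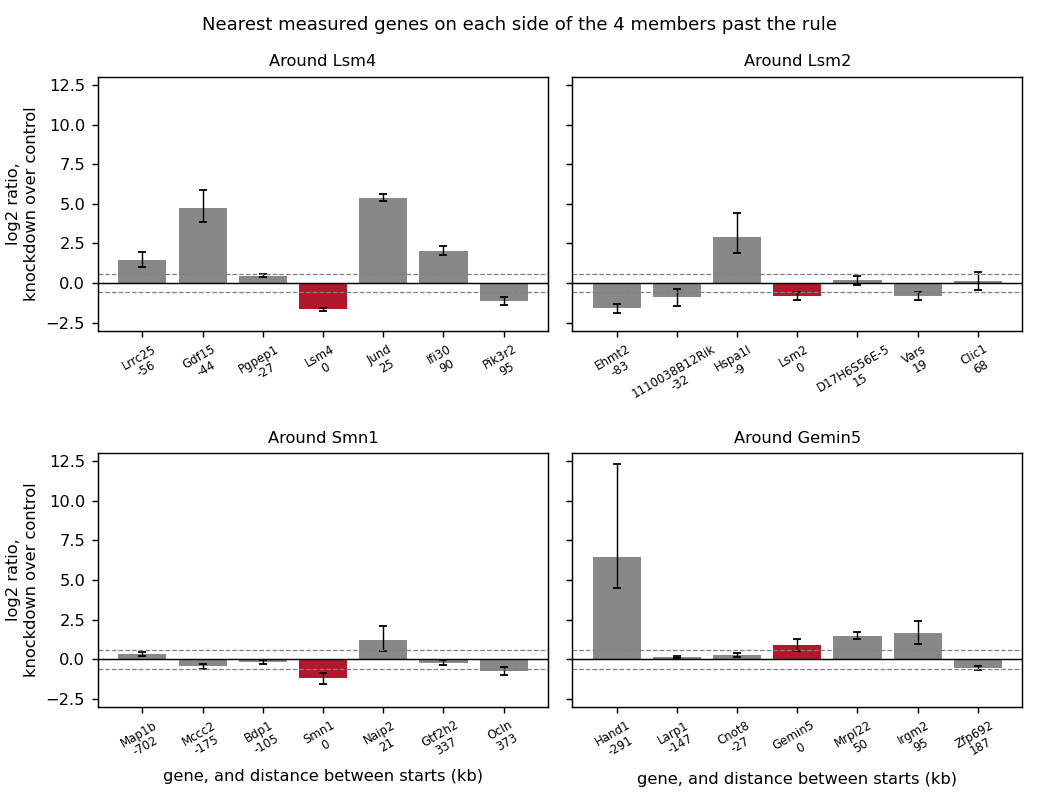
log2 ratio (bars, with 95% counting intervals) of the 4 members past the rule of size (red) and of the 3 nearest measured genes on each side (grey), in order along the chromosome with the distance between gene starts in kb; dashed lines mark a ratio of 1.5. Jund beside Lsm4 stands at 5.39 where Lsm4 stands at -1.67.

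The other Sm ring genes had nearly equal reads. Snrpd2, encoding SmD2, had 5356 and 5392 reads (log2 -0.07). Snrpe, encoding SmE, had 2980 and 3501 reads (0.15), and Snrpg, encoding SmG, had 4002 and 4282 (0.01). None of these 3 genes passed the rule. Together with Snrpb, Snrpd1 and Snrpd3, all 6 measured Sm ring genes lay between -0.29 and 0.15.

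Snrpf, encoding SmF, had 5 and 2 reads, and no fold is given. Of its 861 exon bases, 735 (85.4%) are shared with Ccdc38 and a long noncoding RNA gene (4933408J17Rik) on the opposite strand, and Ccdc38 itself had 6 and 9 reads. Snrpn, encoding the SmB relative SmN known from brain and heart, was listed at 0 in both libraries. It shares exon bases with Snurf, which lies in the same transcript and was also listed at 0. The aligned coding bases of Snrpb and Snrpn are 80.5% identical. Strand and overlap settings: not given in the sources used here. These low values are therefore not read as levels of SmF or SmN.

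Levels can be compared between genes only per length, here as FPKM, a count divided by gene length and library total. In the control library the highest deposited FPKM among the members were those of Snrpd2 (486), Snrpg (451), Snrpb (330), Snrpd3 (311) and Snrpe (268). In the knockdown library Snrpd2 (428) and Snrpg (422) were again highest, followed by Snrpe (275), Snrpd3 (256) and Snrpb (250). The 6 measured Sm ring genes spanned 3.79-fold in FPKM in the control and 3.75-fold in the knockdown library. The 7 genes of the LSm2 to LSm8 ring spanned 42.3-fold and 68.4-fold, from Lsm2 (5.12 and 2.70) to Lsm7 (216 and 185). The lengths implied by these FPKM were 3350 bases for Lsm2, 489 for Lsm7 and 488 for Snrpd2. The exon bases in GENCODE were 3152, 1601 and 2618. Ranks and spans between genes therefore depend on the lengths used. Before division by length, Lsm2 and Lsm7 had 16.5 and 102 CPM in the control library. Lsm4 fell from 145 to 42.2 FPKM, which moved it from rank 9 to rank 18 among the 32 members. Smn1 (4.28 and 1.73) and Gemin5 (0.493 and 0.849) were among the lowest in both libraries.

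**Figure D3:**
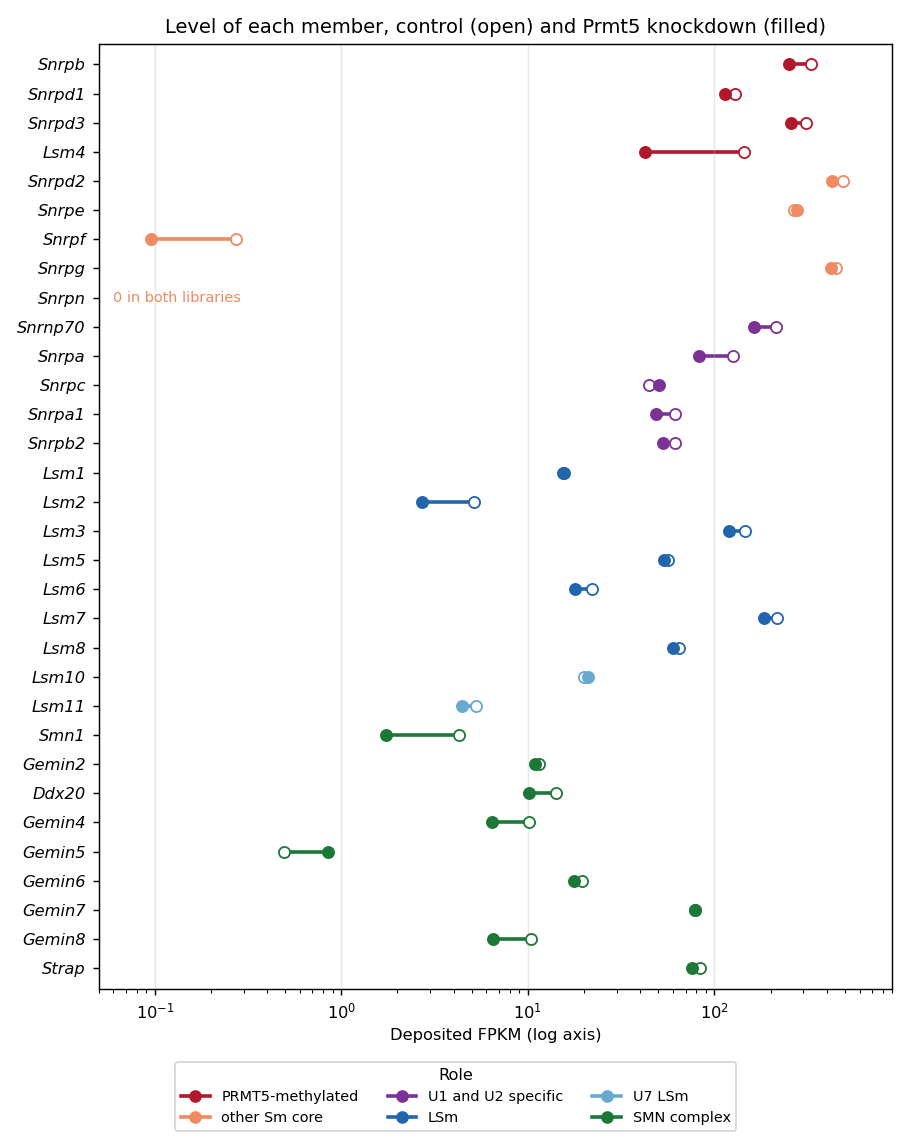
Deposited FPKM of each of the 32 members on a log axis, control as open and knockdown as filled circles, coloured by role; Snrpn was listed at 0 in both libraries. The open and filled circles of most members lie close together, whereas those of Lsm4 are at 145 and 42.2.

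The proteins specific to U1 and U2 included no member past the rule, which 33% of all measured genes passed in either direction. Snrnp70 encodes the U1 70K protein and had 10173 and 8904 reads (log2 -0.28, -0.32 to -0.24). Snrpa, encoding the U1 A protein, had 3818 and 2866 reads and was the lowest of these 5 genes (-0.50, -0.57 to -0.43). It lay just short of the rule and passed it under total-count scaling (-0.61). Snrpc, encoding the U1 C protein, lay in the other direction with 1525 and 1978 reads (0.29, 0.19 to 0.39). The U2 proteins Snrpa1 (1679 and 1507 reads, -0.24) and Snrpb2 (1717 and 1676 reads, -0.12) lay between them. Genes for proteins of the same U1 particle, Snrpa and Snrpc, thus lay in opposite directions, with intervals that did not overlap.

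Among the LSm genes besides Lsm4, 1 of 7 passed the rule, as lower, beside 12.3% of all measured genes. Lsm2, a subunit of the nuclear U6 ring and of the cytoplasmic ring, had 387 and 234 reads, or 16.5 and 9.41 CPM. It was 1.75-fold lower (log2 -0.81, -1.05 to -0.57). Lsm2 (NCBI gene 27756, chr17:34981854-34985891) lies in the major histocompatibility region. Of the 3 measured neighbours on each side, 3 were lower and 1 higher, beside 12.3% and 20.7% of all measured genes. The valyl-tRNA synthetase gene Vars had 359 and 216 reads (-0.82), nearly the ratio of Lsm2, and Ehmt2, a histone methyltransferase, had 345 and 120 reads (-1.60). The part of this stretch, or of how its reads were assigned to genes, in the value of Lsm2 was not tested.

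The remaining LSm genes stayed near equal reads. Lsm3 had 2089 and 1950 reads (-0.18), Lsm6 had 1881 and 1732 (-0.20), and Lsm7 had 2389 and 2335 (-0.12). Lsm5, with 637 and 695 reads (0.04), and Lsm8, the subunit that marks the nuclear U6 ring, with 1097 and 1165 (0.00), had intervals that held 0. Lsm1, which takes the place of Lsm8 in the cytoplasmic decay ring, had 544 and 629 reads (0.13, -0.04 to 0.29). Neither the nuclear nor the cytoplasmic subunit therefore passed the rule. The U7 proteins, which replace SmD1 and SmD2 in the particle that trims histone mRNA, did not pass either. Lsm10 had 384 and 461 reads (0.18, -0.02 to 0.38) and Lsm11 had 669 and 640 (-0.15, -0.31 to 0.01).

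The SMN complex was the most varied class of members, with 4 of 9 (44.4%) within 0.32 of 0 on the log2 scale. That share was near the 45.6% of all measured genes. In each direction 1 of the 9 passed the rule, beside 12.3% of all measured genes as lower and 20.7% as higher. The median of the class was -0.05. Smn1 encodes SMN itself, the protein that reads the methylated tails. It had 206 and 95 reads, or 8.78 and 3.82 CPM, and was 2.29-fold lower (log2 -1.20, -1.57 to -0.84). Smn1 (NCBI gene 20595, chr13:100123205-100137699) stands between Bdp1 with 967 and 917 reads (-0.16) and Naip2 with 20 and 51. Of its 6 measured neighbours 1 was higher, Naip2, and 1 lower, Ocln (355 and 224 reads, -0.75). In either direction 33% of all measured genes passed. Gemin5, which recognises the snRNA, had 103 and 203 reads and was 1.86-fold higher (0.89), with an interval that began at 0.55. Gemin5 (NCBI gene 216766, chr11:58120001-58168554) was no longer past the rule on FPKM with a pseudocount of 1 (0.31). Of its 6 measured neighbours 3 were higher, beside 20.7% of all measured genes, and none was lower. The 3 higher neighbours were Mrpl22, a mitochondrial ribosomal protein gene (208 and 622 reads, 1.49), Irgm2 (22 and 75, 1.66) and the heart transcription factor gene Hand1 (1 and 138). The part of these stretches in the values of Smn1 and Gemin5 was not tested.

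The partners of SMN ranged from lower values short of the rule to equal reads. Gemin8, which recruits Gemin6 and Gemin7, had 437 and 315 reads (-0.56, -0.77 to -0.34). Gemin4 had 785 and 575 reads (-0.53), and 91.3% of its exon bases are shared with other genes in the GENCODE annotation. Both passed the rule under total counts (-0.67 and -0.64). The helicase Ddx20, also called Gemin3, had 958 and 781 reads (-0.38, -0.52 to -0.24).

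Gemin2, which holds the open Sm ring before it closes on RNA, had 411 and 450 reads (0.05). Gemin6 (466 and 481 reads, -0.04) and Gemin7 (1354 and 1546 reads, 0.11), which bind each other, had similar ratios. Strap, encoding the associated protein unrip, had 5024 and 5157 reads (-0.05). Gemin2 and Smn1, whose products bind each other directly, thus differed by more than their counting intervals.

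Of the 7 measured members with at least 6 Arg-Gly codon pairs, 6 had a ratio below 0 (median -0.17), as did 14 of the 23 with fewer pairs (median -0.07). Of all measured genes 50.6% had a ratio below 0, and the pairs were counted without regard to coding length. Among the 7, Lsm4 was lower past the rule, Gemin5 was higher past it, and Snrpb, Snrpd1, Snrpd3, Snrnp70 and Lsm11 lay between -0.29 and -0.06. Lsm2 and Smn1, the other members past the rule, held 1 pair each.

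**Figure D4:**
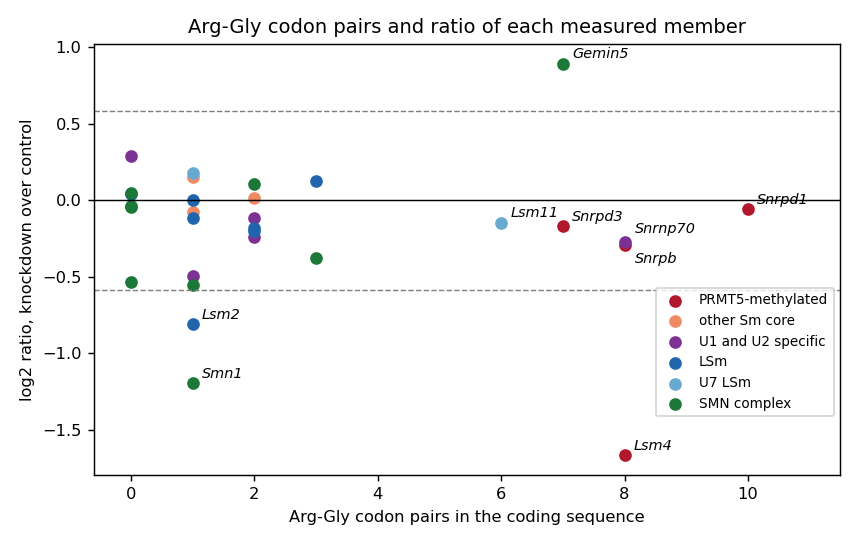
Number of Arg-Gly codon pairs in the coding sequence (x) against the log2 ratio of knockdown over control (y) for the 30 measured members, coloured by role; dashed lines mark a ratio of 1.5. Lsm4 and Snrpb hold 8 pairs each and stand at -1.67 and -0.29.

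Copies of some members may take a part of their reads. For 17 of the 32, at least 1 other GENCODE gene held a sequence of at least 90% identity over at least 80% of the coding length, most often a processed pseudogene. The genes with such a copy that had most reads were Glod4 of Gemin4 (1704 and 2009 reads), which overlaps it, and Zfp410 of Lsm6 (1040 and 1054). The match in Zfp410 lies in a transcript with a retained intron, and the reads given are those of the whole gene, not of the copy. Next came Gm8186 of Snrpg (424 and 416 reads), Gm10146 of Lsm7 (413 and 507), Snrpert of Snrpe (362 and 306) and Gm7846 of Lsm5 (188 and 112). Glod4 had more reads than Gemin4 in both libraries, and each of the other 5 had fewer than its member. Lsm4, Lsm2, Smn1 and Gemin5 had no such copy and no overlapping exons, as was true of 11 of the 32 members.

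Further genes were taken from 9 lists, most of them on snRNP assembly and use, with other arginine methyltransferases and the imprinted neighbours of Snrpn among them. Carm1 and Peg12, which are not snRNP genes, are 2 of the lower genes counted next. Of 76 measured genes in them, 5 passed as lower, none as higher, and 71 did not pass, with a median of -0.19. Of all measured genes 12.3% passed as lower and 20.7% as higher. In the list for snRNA export, import and the Cajal body, 10 of 11 genes did not pass. The lower gene was Usp39, with 210 and 26 reads (log2 -3.07, -3.75 to -2.51). Usp39 was placed in this list but encodes a protein of the U4/U6.U5 particle. Of its 6 measured neighbours 2 were higher and 3 lower, and the part of this stretch in its value was not tested. Of 13 measured U5 and U4/U6 genes, Ppih, a prolyl isomerase bound to the U4/U6 proteins, was lower with 1343 and 631 reads (-1.17), and 12 did not pass.

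None of 10 SF3A and SF3B genes of U2 passed (median -0.27). Those with most reads were Sf3b2 (9825 and 8364 reads, -0.32) and Sf3b1 (7630 and 6893, -0.23). None of 8 minor spliceosome genes passed (median -0.10), with Zrsr2 at 1173 and 925 reads (-0.43) and Snrnp25 at 696 and 998 (0.44). Among 6 partners of U7 none passed (median -0.11), with Sympk at 7072 and 5507 reads (-0.44) and the histone stem-loop binding protein gene Slbp at 2208 and 2923 (0.32). Of 8 decay partners of the cytoplasmic LSm ring, the decapping enzyme Dcp2 was lower (2137 and 1476 reads, -0.62) and 7 did not pass (median -0.19).

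None of 6 other LSm-domain genes passed (median -0.13), with Atxn2l at 7514 and 5383 reads (-0.57) and Lsm14a at 3116 and 3287 (-0.01). Of the 5 measured imprinted neighbours of Snrpn, Peg12 was lower (1423 and 585 reads, -1.37) and 4 did not pass.

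**Figure D5:**
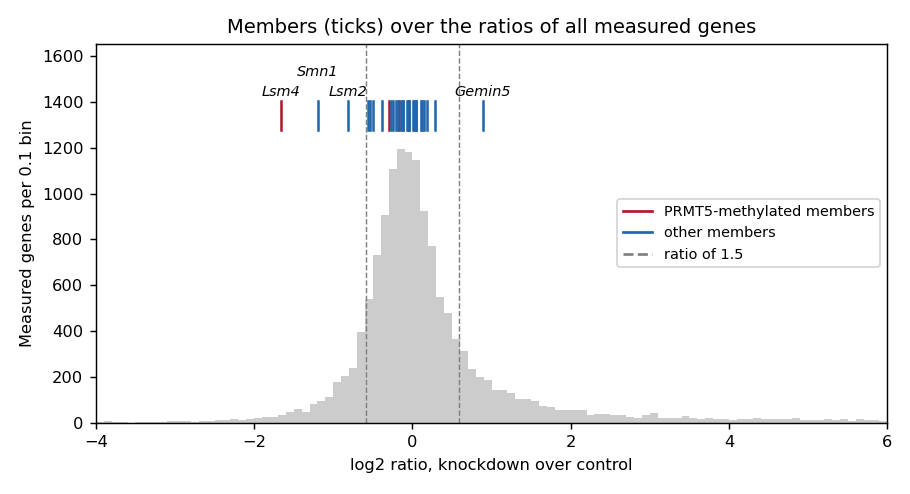
Ratios of all 14569 measured genes (grey bars, genes per 0.1 on the log2 scale) with the PRMT5-methylated members as red ticks and the other members as blue ticks above; dashed lines mark a ratio of 1.5, and genes beyond -4 and 6 are not drawn. Most ticks crowd between the dashed lines, and Lsm4, Smn1, Lsm2 and Gemin5 stand outside them.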

How the data were processed

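The authors deposited raw read counts per gene and FPKM values for the same 41709 entries, of which 40269 matched a RefSeq gene of GRCm38.p6. The submitters' processing notes name TopHat2 2.0.12, Bowtie2 2.2.3, HTSeq 0.6.1 and mm10; annotation, strand setting and treatment of multi-mapped reads: not given in the sources used here. The deposited FPKM equal count over length and library total, with implied lengths whole within 0.001 bp in 100% of 22831 genes with reads in both libraries, so FPKM add no measurement beyond the counts.

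Counts were scaled with the TMM factors of edgeR 4.0.16 under R 4.3.3 (1.04 and 0.963). Ratios carry a prior of 0.5 reads, adjusted for library size, and exact Clopper-Pearson 95% intervals of the 2 counts given their sum (scipy 1.17.1). PCR copies are not independent molecules, so intervals may be too narrow. No p-value was computed. The script was tested on simulated counts. Exon overlaps, coding sequences (principal transcript) and copies (BLAST 2.17.0) came from GENCODE M21. Alternatives numbered 15, among them DESeq2 1.42.0 size factors. A planned description of the protein sequences was replaced by codon pairs. The coding stretches of the other methylated members are not reported here.

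Named genes were all members, Prmt5, Wdr77, Clns1a and, of each list, up to 4 genes past the rule of size or otherwise the 2 with most reads; neighbours and copies were chosen after values were seen. Members and lists were chosen with earlier results of these data known.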

Additional observations from a re-analysis of the deposited data

How the results depend on the processing

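The members' counts, medians and ratios were recomputed under 13 other settings and 2 more chosen after seeing the data (without members that have a near-identical copy, and without Lsm4); the lists, the genes named from them and the named neighbours were recomputed, also by a choice made after seeing the data, under those settings that do not drop members. Levels, copies, neighbour tallies and codon pairs were not. No measured member past the rule of size changed direction under any of them, and Lsm4 stayed between -1.77 and -1.64. Among the members not past the rule, Snrpg (-0.096 to 0.042), Lsm5, Lsm8, Gemin2 and Gemin7 changed sign between settings. Tallies of ratios below 0 therefore depend on the scaling. Scaling by total counts moved the log2 median over all genes by -0.11. The median of the members then became -0.23, of the methylated members -0.34 and of the others -0.21, with 6 members lower. FPKM with a pseudocount of 0.1 gave -0.23, -0.34, -0.21 and 6 lower. FPKM with a pseudocount of 1 gave -0.22, -0.34, -0.20, 5 lower and 0 higher. Relative to the median of all genes the members stood at -0.11 with the main scaling, total counts and DESeq2 size factors alike. This equality was fixed in advance, because a change of library scaling moves the log2 ratio of every gene by nearly the same amount. The share of higher genes among all that passed was 62.7% with the main scaling and 52.3% with total counts. The smaller ratio (0.32 on the log2 scale) gave 7 lower members and a ratio of 2 gave 0 higher; among all genes that passed, 74.4% were then higher with the ratio of 2. With means, the methylated members stood at -0.55 and the difference between the classes at -0.41. Without near-identical copies the members' median was -0.18, and without overlapping members the difference was -0.22. The 9 lists had 8 lower genes under total counts and either FPKM (median -0.30 with total counts and with a pseudocount of 0.1), 18 lower and 1 higher with the smaller ratio, and 3 lower with a ratio of 2. The median near 0 of the S phase genes changed sign with DESeq2 size factors (0.0011) and with means (0.024), and that of the imprinted neighbours of Snrpn with the higher read minimum (0.054). Usp39 ranged from -3.18 to -1.67 and Jund from 4.53 to 5.42. No paired analysis was possible because each group has 1 library, and none could be left out. Smn1 (95 knockdown reads) and Gemin5 (103 control reads) are the measured members most limited by depth.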

Other observations

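A further stretch with opposite neighbours lay around Usp39 on chromosome 6, and was looked at after its value was seen. Usp39 had 210 and 26 reads and the adjacent gene 0610030E20Rik 139 and 14 (log2 -3.35), whereas Rnf181, a ubiquitin ligase gene that starts 41.0 kb from the start of Usp39, had 40 and 1270 reads (4.89, 4.45 to 5.40). Ggcx, the vitamin K-dependent carboxylase gene, had 90 and 16 reads (-2.54). By contrast, none of the 6 measured neighbours of Ppih passed the rule of size, with ratios between -0.15 and 0.40. In either direction 33% of all measured genes passed it. The cause of opposite ratios in adjacent genes was not tested.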
